A study of Mus musculus with 46 samples.

Results

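Acetylation of histone H3 at lysine 27 (H3K27ac) was compared between dividing microglia of demyelinating mice and microglia of adult mice without cuprizone. The regions described are the union of the 4 H3K27ac region lists of these groups, 33128 regions in all, from 4 of the 46 samples of the series. The cuprizone Ki67-positive group had 2 libraries from male C57BL/6 mice of 90 days, genotype WT, fed cuprizone for 4 weeks and sorted for the proliferation protein Ki67. The adult group had 2 libraries from male C57BL/6 mice, genotype WT, of 60 and 65 days, labelled as Ki67-Negative and basal with no treatment, though their file headers name a vehicle. All cells were labelled for CD11b, CD45 and CD44 and, after fixation, for Ki67 with an antibody, and the isolation buffer of every library held butyrate and flavopiridol. Cuprizone, age and Ki67 status differed together between the 2 groups and cannot be told apart in this comparison. Ki67-negative cells of cuprizone-fed mice of the same age were therefore used for a further comparison. The series compared proliferating microglia of several settings, and no RNA library of cuprizone-fed mice was analysed here. The labels do not say whether the chromatin replicates came from separate mice, so p-values measure the spread between these samples, which may be technical.

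Microglia are the resident macrophages of the brain, and they are maintained by local division. H3K27ac marks active promoters and active enhancers, and its level at a promoter usually goes along with transcription of the gene. Cuprizone kills oligodendrocytes and strips myelin, after which microglia divide, take up myelin debris and turn on lipid-handling genes known from disease-associated microglia. Promoters of genes of the late cell cycle often hold a CHR element (cell cycle genes homology region) together with CCAAT boxes, which bind the factor NF-Y, while promoters of S phase genes often bind E2F factors.

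The promoters below carry the main findings and are shown as RefSeq gives them for GRCm38.p6, 250 bases before to 50 bases after the start of the gene, in the direction of the gene. The first 4 belong to late cell cycle genes whose region was called in both cuprizone lists and in no adult list. E2f2 and Itgax lay in regions that rose, and Igf1 in a region called in the cuprizone lists alone. Capitals mark the letters TTTGAA (CHR), CCAAT, TTTGGCGC (an E2F form) and TGANTCA (AP-1), each searched on both strands, so that a match on the other strand reads TTCAAA or ATTGG. For the capitals, CCAAT was searched in every window, and TTTGAA in the first 4 and Igf1. TTTGGCGC was searched in E2f2 alone, and TGANTCA in Igf1 and Itgax.
Mki67, the Ki67 protein itself, chr7:135716330-135716629, minus strand: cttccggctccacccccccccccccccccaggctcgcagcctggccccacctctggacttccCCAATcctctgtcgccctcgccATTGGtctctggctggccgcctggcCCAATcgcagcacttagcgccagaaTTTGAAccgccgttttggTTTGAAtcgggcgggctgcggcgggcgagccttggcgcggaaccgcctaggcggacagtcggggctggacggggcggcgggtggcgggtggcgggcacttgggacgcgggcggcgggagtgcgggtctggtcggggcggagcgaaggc
Cdk1, the kinase that drives entry into mitosis, chr10:69352863-69353162, minus strand: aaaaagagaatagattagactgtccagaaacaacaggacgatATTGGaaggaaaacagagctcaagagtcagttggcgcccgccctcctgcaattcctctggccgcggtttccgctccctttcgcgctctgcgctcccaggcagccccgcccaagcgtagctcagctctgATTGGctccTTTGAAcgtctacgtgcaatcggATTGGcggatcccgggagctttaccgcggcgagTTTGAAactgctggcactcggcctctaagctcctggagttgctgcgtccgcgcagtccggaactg
Ccnb2, cyclin B2, a partner of Cdk1, chr9:70421505-70421804, minus strand: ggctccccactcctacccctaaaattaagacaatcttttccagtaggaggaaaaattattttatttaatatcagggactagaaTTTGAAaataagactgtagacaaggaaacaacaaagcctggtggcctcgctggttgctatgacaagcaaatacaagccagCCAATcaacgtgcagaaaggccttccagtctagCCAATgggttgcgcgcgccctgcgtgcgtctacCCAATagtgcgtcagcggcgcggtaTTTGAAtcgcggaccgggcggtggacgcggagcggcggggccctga
Ube2c, a ubiquitin-conjugating enzyme of mitotic exit, chr2:164769679-164769978, plus strand: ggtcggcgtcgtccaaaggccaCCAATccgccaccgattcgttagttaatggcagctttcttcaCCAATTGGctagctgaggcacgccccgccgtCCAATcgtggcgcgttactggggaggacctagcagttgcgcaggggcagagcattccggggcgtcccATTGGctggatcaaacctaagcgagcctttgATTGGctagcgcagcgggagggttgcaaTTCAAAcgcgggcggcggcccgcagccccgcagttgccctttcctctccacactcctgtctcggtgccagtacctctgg
E2f2, an E2F factor of S phase entry, chr4:136172024-136172323, plus strand: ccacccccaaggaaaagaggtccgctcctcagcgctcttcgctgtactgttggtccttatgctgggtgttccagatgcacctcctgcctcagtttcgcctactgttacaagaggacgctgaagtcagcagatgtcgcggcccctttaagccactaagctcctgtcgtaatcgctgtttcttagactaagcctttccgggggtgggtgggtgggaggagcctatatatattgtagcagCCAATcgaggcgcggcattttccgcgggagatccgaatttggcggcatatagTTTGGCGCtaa
Igf1, insulin-like growth factor 1, chr10:87860861-87861160, plus strand: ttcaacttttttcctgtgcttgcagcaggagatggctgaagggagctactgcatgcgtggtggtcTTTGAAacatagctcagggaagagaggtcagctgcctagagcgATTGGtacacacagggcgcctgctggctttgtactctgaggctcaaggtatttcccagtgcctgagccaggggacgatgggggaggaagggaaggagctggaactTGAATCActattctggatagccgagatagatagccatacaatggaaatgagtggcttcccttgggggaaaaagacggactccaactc
Itgax, the integrin CD11c, chr7:128129300-128129599, plus strand: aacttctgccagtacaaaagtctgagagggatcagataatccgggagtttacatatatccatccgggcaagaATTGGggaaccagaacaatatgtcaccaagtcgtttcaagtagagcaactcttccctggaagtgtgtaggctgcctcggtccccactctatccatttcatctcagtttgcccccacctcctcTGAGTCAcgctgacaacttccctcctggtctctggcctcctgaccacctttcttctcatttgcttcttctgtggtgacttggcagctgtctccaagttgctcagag
The Mki67, Cdk1 and Ccnb2 windows each held TTTGAA 2 times and CCAAT 3 times, and the Ube2c window held them 1 and 6 times. Igf1 and Itgax each held 1 AP-1 match, and the Igf1 window also held TTTGAA and CCAAT 1 time each. Over the G2/M list, 26 of 46 genes with a window in a union region held TTTGAA and CCAAT in 1 window (56.5%), against 560 of 10283 genes with a window in any union region (5.45%) and 2155 of 27025 genes in the table (7.97%). Within that list the share was 7 of 12 where the region rose or was called in the cuprizone lists alone (58.3%) and 19 of 34 elsewhere (55.9%). S phase genes held CCAAT in 20 of 28 windows (71.4%, against 40.5% of genes with a window in a union region) and TTTGGCGC in 5 of 28 (17.9% against 1.15%). The other E2F form, TTTCCCGC, stood in 5 of 28 as well (17.9% against 2.46%), and AP-1 matches stood in 6 of 24 windows of disease-associated genes (25.0% against 5.38%). AP-1 stood more often in interferon genes (6 of 15) and NF-kB genes (4 of 11), and CCAAT in lipid genes (11 of 14) and antigen presentation genes (5 of 6).

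The 4 libraries held 15233543 to 22888521 tags, of which 32.6% to 65.3% lay in called regions. Adult replicate 1 stood apart, with the deepest library, the lowest share of tags in regions (32.6%) and the shortest list (19572 regions, against 24903 to 30283). Across tested regions the log2 values correlated at 0.905 between the adult libraries, 0.953 between the cuprizone libraries and 0.801 to 0.848 between groups; these share depth and region width. Of 8 microglial marker genes, all 8 had a promoter region in the union, with summed scaled tag counts of 9222 and 11516 in the adult and 8884 and 7994 in the cuprizone libraries. Of 10 oligodendrocyte lineage markers 3 had a promoter region, with summed counts of 271 and 384 against 333 and 323. Neuron markers and monocyte or neutrophil markers had none, astrocyte markers had 1 (71.1 and 87.3 against 91.4 and 67.4) and endothelial markers had 2 (63.8 and 102 against 30.1 and 103). Border macrophage markers had 2 promoter regions (36.1 and 53.0 against 27.5 and 38.9), and the single lymphocyte region appeared in cuprizone replicate 2 alone (28.1). In pooled cells, fewer cells with the mark and less of the mark per cell cannot be told apart.

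Most regions were shared, and those found in 1 group were mostly found after cuprizone. All 4 lists held 16771 regions (50.6% of the union). Both cuprizone lists and no adult list held 3106 regions (9.38% of the union), while both adult lists and no cuprizone list held 307 (0.927%). Below, the former are described as found only after cuprizone or called after cuprizone alone. These words compare the 4 lists alone, and lists of other settings may hold the same regions. Among the 9696 promoter regions, which hold a transcription start site or lie within 1000 bp of one, these numbers were 412 (4.25%) and 11 (0.113%). The lists differ in length: cut to the 19572 strongest regions of each, a setting chosen after seeing the data, they gave 1528 and 1089. With adult replicate 1 left out, the numbers were 3420 and 1825. Presence has no test here, because the smallest two-sided exact p that 2 against 2 libraries allow is 0.333.

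**Figure D1:**
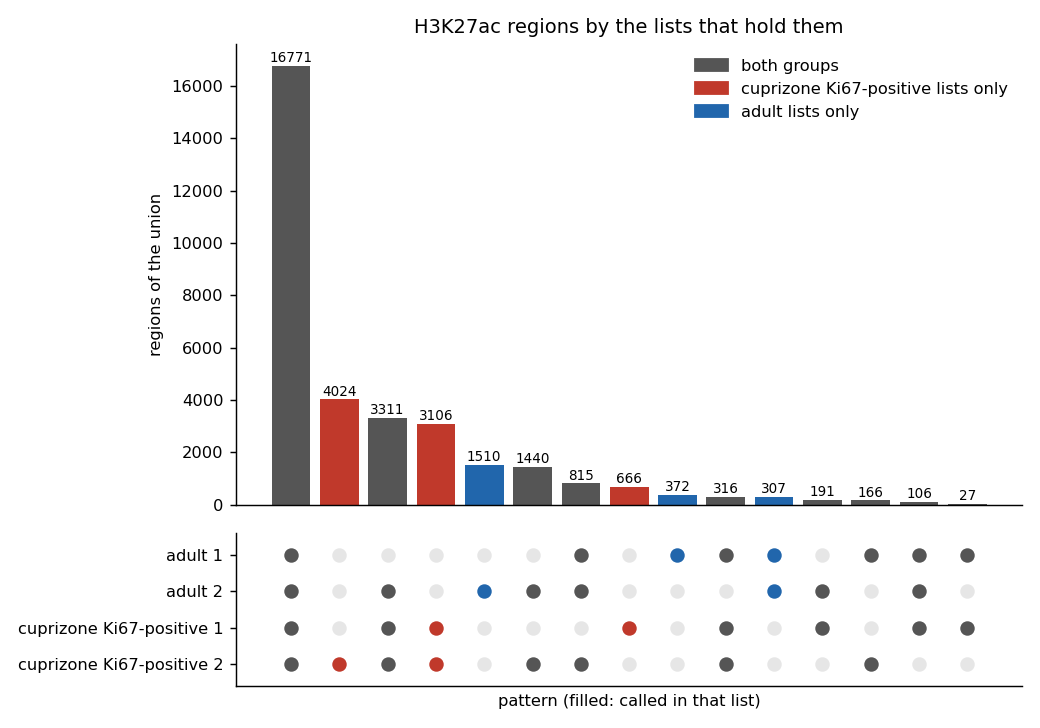
Number of regions of the union (bars) by the lists that hold them (filled dots below); grey bars have lists of both groups, red bars cuprizone Ki67-positive lists alone and blue bars adult lists alone. The 16771 regions in all 4 lists are the largest pattern, and the 4024 regions of cuprizone replicate 2 alone and the 1510 of adult replicate 2 alone show how far single lists differ.

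The regions found only after cuprizone were mostly distal, as were the other regions missing from at least 1 list. A promoter lay at 13.3% of them, against 3.58% of adult-only regions and 14.0% of the remaining patterns (29.3% of the union). Their median distance to the nearest start site was 23669 bp, against 21730 bp in adult-only regions. By mean tag count the leading ones were over the starts of Rab7b, a small GTPase of late endosomes (644 and 578 scaled tag counts in the cuprizone libraries), Bhlhe40, a transcription factor (446 and 547), Ch25h, which makes 25-hydroxycholesterol (405 and 550), and Actr3b, an actin-nucleation protein (373 and 500). Another stood 39.57 kb from Cd9 (504 and 441) and 1 stood 48.46 kb from Lgi2 (389 and 482). All 6 were also called in both Ki67-negative cuprizone lists. A gene named for a region off its start is the nearest in the annotation, which does not show that the region acts on it. The adult-only regions were weaker and shorter, with a median width of 1066 bp against 1341 bp for those of cuprizone. The leading ones were 23.32 kb from Vrk1 (254 and 323 in the adult libraries), 11.3 kb from B4galt1 (258 and 237) and 6.369 kb from Tmem119, a microglial membrane protein (110 and 250). That near Tmem119 was called in both Ki67-negative cuprizone lists, that near Vrk1 in replicate 2 and that near B4galt1 in replicate 1. Merged with the Ki67-negative cuprizone lists, the region near B4galt1 had 736 and 853 in the adult and 715 and 511 in the cuprizone Ki67-positive libraries (-0.39).

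At the 16771 regions with signal in all 4 libraries, limma with Benjamini-Hochberg adjustment called 1221 higher (7.28%) and 820 lower (4.89%) in cuprizone Ki67-positive cells. A scaled tag count is the summed Normalized Tag Count of a region divided by a factor per library, so that the median region is alike in all 4. Only peaks called in a library were summed, so stretches not called there added nothing, and fold changes include differences in called length. At Apoe the called length was 755 and 1218 bp in the adult and 3685 and 3345 bp in the cuprizone libraries. Near Auh the log2 fold change was 3.77, and 1.64 by tag density over the called length. Fold changes are on the log2(scaled tag count + 1) scale. Rises ran from 0.71 to 4.66 with a median of 1.63, and falls from -3.82 to -0.65 with a median of -1.08. Of promoter regions 383 rose (5.13%) and 155 fell (2.08%) of 7459, and of distal regions 838 rose (9.0%) and 665 fell (7.14%) of 9312. The groups did not overlap in 9985 of the 16771 regions, among them all 2041 called. The split of calls rests on the scaling. Higher calls were 59.8% of calls as given, 96.9% with library sizes as the only scaling and 98.1% without the factor, which moved the median region up by 0.40, and 85.2% where a fold of at least 1.5 was tested. The levels of regions also moved with the fold change: with regions split into 3 equal groups by level, the median was 0.29 in the lowest, 0.05 in the middle and -0.24 in the highest. Quantile normalization, added after seeing the data, took this trend out and gave 1362 higher and 1039 lower. Over the same 16771 regions without cuprizone replicate 1, 389 were higher and 296 lower, and without cuprizone replicate 2, 397 and 143. Without adult replicate 1 there were 1968 and 2406, and without adult replicate 2 there were 3424 and 2906.

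**Figure D2:**
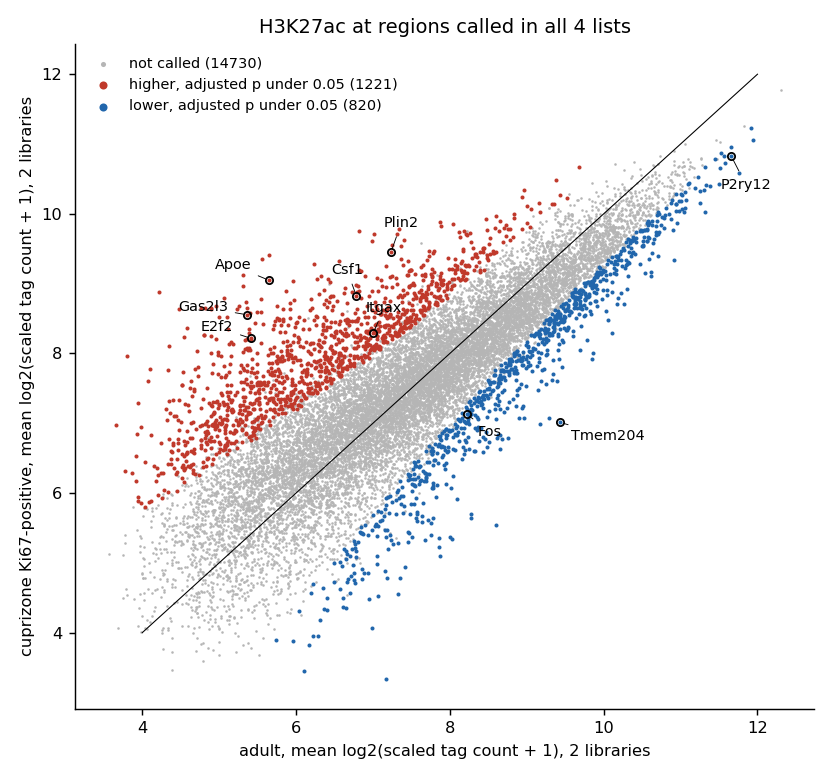
Mean log2(scaled tag count + 1) of 2 adult libraries (x) against 2 cuprizone Ki67-positive libraries (y) for the 16771 regions in all 4 lists; red and blue mark the 1221 higher and 820 lower regions and the line marks equal levels. Apoe (log2 fold change 3.40) and Gas2l3 (3.20) lie far above the line, and Tmem204 (-2.42) far below it.

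Several promoters of late cell cycle genes rose. In the G2/M list 7 of 30 tested promoter regions rose and 0 fell, against 5.13% and 2.08% of all promoter regions, and 11 of 53 were called in both cuprizone lists and no adult list, against 4.25%. The median log2 fold change was 0.69, against 0.02 over all promoter regions, and moved with the scaling as given with the S phase list. Gas2l3, which links actin and microtubules at division, had 35.5 and 44.9 scaled tag counts in the adult and 388 and 363 in the cuprizone libraries at chr10:89442342-89444949. Its groups lay far apart, by a log2 fold change of 3.20 ± 0.33 (SE, limma adjusted p = 0.000509). Anln, anillin of the contractile ring, had 32.2 and 31.1 against 137 and 213 (2.40 ± 0.41, limma adjusted p = 0.0046). Smc4, a condensin subunit, had 61.1 and 98.4 against 257 and 331 (1.90 ± 0.34, limma adjusted p = 0.00616). Aurkb, the kinase aurora B, had 153 and 179 against 386 and 373 (1.20 ± 0.26, limma adjusted p = 0.0149). In each of these, as in all 2041 called regions, the groups did not overlap. Hmgb2, a chromatin protein (1.33), and Cdca2, which brings a phosphatase to chromatin at mitotic exit (1.29), rose as well, and Ncapd2, another condensin subunit, was the seventh. The Cdca2 region also holds the start of Kctd9, the Smc4 region that of Ift80 and the Ncapd2 region that of Mrpl51, so the signal cannot be given to 1 gene there.

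The 11 promoters called in both cuprizone Ki67-positive lists and no adult list belong to Mki67, Cdk1, Ccnb2, Bub1, Tpx2, Ube2c, Nek2, Ckap2, Dlgap5, Gtse1 and Cdc25c. At Mki67 (chr7:135714932-135717326), the gene behind the sort, no adult region was called and the cuprizone libraries had 139 and 198 scaled tag counts. The Mki67 region was also called in every PND8 and repopulation H3K27ac list, and in cuprizone Ki67-negative replicate 2 but not replicate 1. Top2a, the topoisomerase that untangles chromosomes, had no region in adult replicate 1, 14.7 in adult replicate 2, and 43.4 and 83.1 in the cuprizone libraries. Cyclin B1 (Ccnb1) had a region in cuprizone replicate 2 alone (36.5). That no adult H3K27ac region was called at the 11 promoters does not show that the mark was absent. Adult H3K4me3 regions, a mark of promoters, lay over all 11 in both adult lists, and adult open chromatin lay over all 11. Over all promoter regions of the union those shares were 96.7% and 97.5%, so the 11 did not stand out in this.

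S phase genes showed smaller differences. Of 22 tested promoter regions 3 rose and 0 fell (5.13% and 2.08% of all promoter regions), with a median log2 fold change of 0.44, and 7 of 41 were called after cuprizone alone (4.25%): Mcm2, Mcm6, Rrm2, Tyms, Uhrf1, Dscc1 and E2f8. Brip1, a helicase of DNA repair, had 68.3 and 44.9 in the adult and 137 and 146 in the cuprizone libraries (1.33 ± 0.38, limma adjusted p = 0.0423). Dtl, which targets licensing proteins for destruction, had 124 and 89.0 against 206 and 253 (1.11 ± 0.32, limma adjusted p = 0.0432). The Dtl region also holds the start of Ints7. Atad2, a bromodomain ATPase, rose by 1.17 ± 0.33. Mcm5 of the replicative helicase had 46.7 and 20.9 against 77.3 and 72.2, higher in both cuprizone libraries with no call (1.23 ± 0.49, limma adjusted p = 0.123; 1.73 and called without adult replicate 1). Pcna, the sliding clamp, had 379 and 242 against 219 and 211 and was not called (-0.49 ± 0.29, limma adjusted p = 0.282; -0.83 and called without adult replicate 2). The S phase calls rest on both cuprizone libraries: 0 of the 3 were kept without either one, with medians of the list at 0.65 without replicate 1 and 0.33 without replicate 2, and all 3 without either adult library. Without adult replicate 2, 6 S phase regions were called higher and 4 lower, and 13 and 2 G2/M regions. The median of the list was 0.12 by tag density over the called length, 0.25 under quantile normalization and 0.85 without the scaling factor, and 0 were called without the factor or against a fold of 1.5. Of the 7 G2/M calls, 3 were kept without cuprizone replicate 1 and 1 without cuprizone replicate 2, which was that of Gas2l3, with list medians of 0.81 and 0.57. The G2/M median was 0.16 by tag density, where 4 of the 7 calls were kept, and 1.11 without the scaling factor, and 2 were kept against a fold of 1.5.

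Dna2 and E2f2, genes of DNA replication and of entry into it, rose as well. Dna2, a nuclease and helicase of replication, had the third largest rise at a strong region: 75.6 and 73.4 in the adult and 633 and 607 in the cuprizone libraries at chr10:62944454-62949341 (3.04 ± 0.27, limma adjusted p = 0.000451). E2f2 had 34.9 and 49.9 against 263 and 334 at chr4:136171721-136174001 (2.80 ± 0.36, limma adjusted p = 0.00115). Both regions kept their call under every alternative that tested them, leaving out each library included. The E2f2 region was not tested with at least 100 tags in every library.

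Several promoters of disease-associated microglia genes rose as well. Of 17 tested promoter regions 5 rose and 1 fell (5.13% and 2.08% of all promoter regions), and 8 of 29 were called after cuprizone alone (4.25%). Apoe, the lipid carrier apolipoprotein E, had 38.8 and 61.9 scaled tag counts in the adult and 548 and 511 in the cuprizone libraries at chr7:19698091-19702294, which is 10.6-fold (3.40 ± 0.33, limma adjusted p = 0.000451). Csf1, the growth factor that sustains microglia, had 103 and 115 against 449 and 458 at chr3:107757953-107761038 (2.04 ± 0.27, limma adjusted p = 0.00129). Itgax, the integrin CD11c, had 122 and 133 against 314 and 310 (1.29 ± 0.28, limma adjusted p = 0.0143). The tetraspanins Cd9 (1.30) and Cd63 (1.17) rose too. The region that fell lay 0.777 kb from Cd52, a small surface glycoprotein (2337 and 1641 against 1227 and 1030, -0.80 ± 0.22, limma adjusted p = 0.0369). It was not called without adult replicate 1 (-0.61) or cuprizone replicate 2 (-0.66). The call was also lost with library sizes alone, without the scaling factor, under quantile normalization and against a fold of 1.5. Merged with the Ki67-negative cuprizone lists, the Cd52 region had 2525 and 1761 against 1653 and 1485 (-0.43). A second Cd52 region was among those called after cuprizone alone.

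Several defining genes of this state had no promoter region called in either adult list, which does not show that the mark was absent. Igf1 had 455 and 351 scaled tag counts in the cuprizone libraries, Lpl, lipoprotein lipase, had 339 and 382, and Axl, a receptor for dying cells, had 295 and 386, with no adult region called at these 3. Spp1, osteopontin, was called at low levels after cuprizone (23.7 and 22.1). Fabp5, Lgals3 and Ch25h completed that group. Clec7a, the receptor dectin-1, had no region in adult replicate 1, 11.6 in adult replicate 2, and 375 and 376 in the cuprizone libraries. Cst7, cystatin F, had none, 19.6, 212 and 322 in the same order, and Gpnmb had a region in cuprizone replicate 2 alone (33.7). Counting every region nearest to a gene of the list, 15 of 46 tested rose and 3 fell (7.28% and 4.89% over all regions), and 38 of 135 were called after cuprizone alone and 0 in the adult lists alone (9.38% and 0.927%). The Csf1 call held under every alternative. That of Apoe held under each one that tested it, but was not tested with at least 100 tags. Those of Itgax (1.29 without cuprizone replicate 1 and 1.31 without replicate 2) and Cd63 (1.18 in both cases) were lost without either cuprizone library. With library sizes alone or against a fold of 1.5, the Itgax, Cd63 and Cd9 calls were lost. That of Itgax was also lost without the scaling factor and by tag density. The promoter median of the list was 0.32, with 0.18 by tag density and 0.74 without the scaling factor. It was 0.13 without adult replicate 1 and 0.50 without adult replicate 2.

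Interferon-stimulated and lipid genes followed in smaller number. Rtp4, an interferon-induced chaperone, had 26.9 and 35.2 in the adult and 218 and 306 in the cuprizone libraries (3.03 ± 0.38, limma adjusted p = 0.00106). Usp18, which restrains interferon signalling, had 44.7 and 12.5 against 120 and 137 (2.38 ± 0.55, limma adjusted p = 0.0188; 2.29 and not called without cuprizone replicate 2). These were the 2 called of 7 tested interferon promoters (5.13% of all promoter regions), and 5 of 22 were called after cuprizone alone (4.25%): Ifit1, Ifit2, Ifitm3, Oas1a and Oasl2. In the cholesterol and lipid list 3 of 16 rose and 0 fell (5.13% and 2.08%), with a median of 0.39 that was 0.19 by tag density and 0.81 without the scaling factor. Plin2, which coats lipid droplets, had 185 and 121 against 803 and 610 (2.22 ± 0.28, limma adjusted p = 0.00109). Scd2, a desaturase, had 130 and 151 against 396 and 458 (1.60 ± 0.27, limma adjusted p = 0.00437). Soat1, which esterifies cholesterol for storage, rose by 0.85 ± 0.23. Abca1, the cholesterol exporter, had 693 and 580 against 787 and 622 and was not called (0.14 ± 0.22, limma adjusted p = 0.71). The Plin2 call held under every alternative, that of Scd2 was lost without cuprizone replicate 2 (1.51), and that of Soat1 without cuprizone replicate 1 (0.81) or 2 (0.91).

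Immediate early genes lay on the other side. Of 17 tested promoter regions 0 rose and 6 fell, against 2.08% of all promoter regions that fell, with a median log2 fold change of -0.51. Fos, a subunit of AP-1, had 278 and 317 in the adult and 141 and 137 in the cuprizone libraries at chr12:85471771-85474802 (-1.09 ± 0.28, limma adjusted p = 0.028). Fosb had 312 and 373 against 123 and 193 (-1.14 ± 0.30, limma adjusted p = 0.0313). A region 0.872 kb from Zfp36, which degrades cytokine mRNA, had 1559 and 1125 against 687 and 703 (-0.93 ± 0.22, limma adjusted p = 0.0196). Another Zfp36 region (-0.73), Klf6 (-0.73) and Jund (-0.70, in a region that also holds the start of Iqcn) made up the rest. In all 6, as in all 2041 called regions, the groups did not overlap. None of the 6 calls was kept without cuprizone replicate 1 (list median -0.63) or 2 (-0.34), 4 were kept without adult replicate 1, and 0 were kept without the scaling factor, where the median was -0.09; quantile normalization kept 3, with a median of -0.11. In the NF-kB list 2 of 18 rose and 1 fell (5.13% and 2.08% of all promoter regions). Tnf had 320 and 347 against 661 and 604 (0.92 ± 0.23, limma adjusted p = 0.023), Bcl3, a nuclear co-regulator of NF-kB, rose by 0.83 ± 0.25, and the region 0.811 kb from Il1b had 738 and 655 against 369 and 350 (-0.95 ± 0.22, limma adjusted p = 0.0188). None of these 3 calls was kept without cuprizone replicate 1 (list median -0.11) or 2 (0.04).

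Homeostatic genes kept their promoter regions in every library, and 2 of the 21 were called, both lower. All 21 promoter regions of the list lay in all 4 lists, and the median was -0.03. Of them 0 rose and 2 fell, against 5.13% and 2.08% of all promoter regions. P2ry12, the purinergic receptor that marks resting microglia, had 3813 and 2742 in the adult and 1947 and 1690 in the cuprizone libraries at chr3:59257866-59265562 (-0.83 ± 0.21, limma adjusted p = 0.0257). P2ry13, its neighbour, had 3430 and 2730 against 1925 and 1488 (-0.85 ± 0.21, limma adjusted p = 0.0224). Both calls were lost without the scaling factor, under quantile normalization (log2 fold changes of -0.17 and -0.21 in that order) and without adult replicate 1 (-0.66 and -0.75); that of P2ry13 was also lost without cuprizone replicate 2 (-0.66). Csf1r, the receptor for Csf1, had 1717 and 1903 against 1466 and 1232 and was not called (-0.43 ± 0.20, limma adjusted p = 0.171). Tmem119 had 55.2 in adult replicate 1 against 691, 785 and 753 in the other libraries, so adult replicate 1 sets its value (1.96 ± 0.77, limma adjusted p = 0.115; 0.09 without it). Sall1, a factor of microglial identity, had 604 and 1102 against 901 and 711. Of the 105 tested regions nearest to a homeostatic gene, 1 rose and 12 fell (7.28% and 4.89% over all regions), with a median of -0.36. The direction of the promoter median turned with the scaling, to 0.39 without the factor and 0.24 under quantile normalization, where 4 rose and 0 fell. It was also 0.24 without adult replicate 2 and -0.52 without adult replicate 1.

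Among microglial transcription factors 3 of 22 tested promoter regions rose and 1 fell (5.13% and 2.08% of all promoter regions). Of 28 promoter regions 1, that of Bhlhe40, was called after cuprizone alone (4.25%). Besides E2f2, Mitf, a regulator of lysosomal genes, had 48.6 and 135 in the adult and 374 and 360 in the cuprizone libraries (2.16 ± 0.42, limma adjusted p = 0.00818). Maf had 295 and 281 against 536 and 572 (0.94 ± 0.23, limma adjusted p = 0.0231; 1.00 and 0.91 and not called without cuprizone replicate 1 or 2). Mef2a, a factor of the resting state, had 1838 and 1412 against 900 and 709 (-1.01 ± 0.22, limma adjusted p = 0.0141; -0.83 and not called without cuprizone replicate 2). Of 7 tested promoter regions of antigen presentation genes limma called 0 in either direction, against the same shares of all promoter regions. Of 8 promoter regions 1, that of H2-Ab1, a class II chain, was called after cuprizone alone (4.25%).

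**Figure D3:**
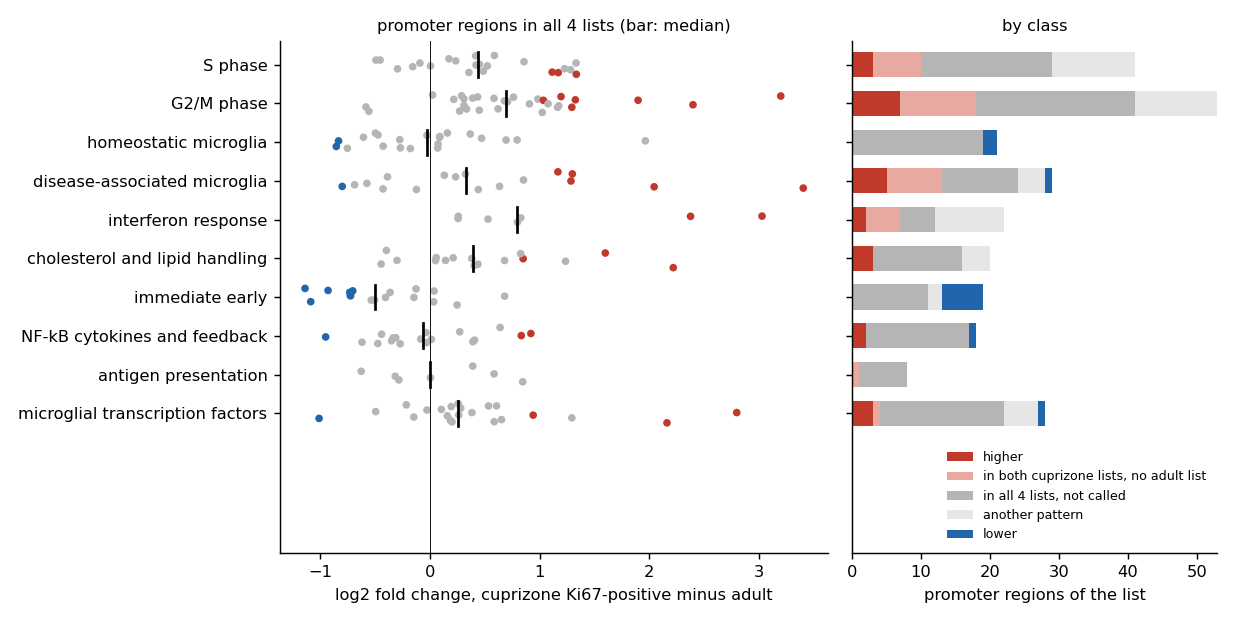
Left, log2 fold change of each promoter region in all 4 lists (dots, red higher, blue lower, grey not called) with the median of each gene list (bar); right, the number of promoter regions of each list by class. G2/M (median 0.69) and interferon (0.80) promoters lie to the right, and immediate early promoters (-0.51) to the left.

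Outside these lists, the largest rises at strong regions are given by their nearest genes. A region 105.9 kb from Auh, an enzyme of leucine breakdown, had 19.7 and 120 in the adult and 734 and 632 in the cuprizone libraries (3.77 ± 0.59, limma adjusted p = 0.00318). The 2 adult libraries differed widely there. Synj2, a phosphoinositide phosphatase, had 84.1 and 149 against 866 and 866 over its start (2.94 ± 0.29, limma adjusted p = 0.000451). Psat1, an enzyme of serine synthesis, rose over its start (2.65) and 18.76 kb away (2.77). Pdcd1, the receptor PD-1, had 101 and 157 against 870 and 700 (2.62 ± 0.28, limma adjusted p = 0.000602). Slc2a6, a hexose transporter (2.59), and Cd244a, a receptor of the SLAM family (2.58), rose over their starts as well. Regions near Lasp1 (36.91 kb, 3.08), Chst1 (5.3 kb, 2.79), Plekhh2 (over its start, 2.77) and Galnt7 (59.66 kb, 2.70) completed the 12. The Lasp1 region had 24.4 and 150 in the adult libraries and lost its call with DESeq2, as did Cd244a.

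The largest fall at a strong region was over the start of Tmem204, which encodes a claudin-like membrane protein. It had 677 and 701 in the adult and 129 and 128 in the cuprizone libraries at chr17:25077974-25082823, a 5.34-fold lower level (-2.42 ± 0.25, limma adjusted p = 0.000455). The replicates of each group nearly coincided, and the call held under every alternative. The other large falls described lay off the start. They were near Hs1bp3 (-2.21), Gpr34, a homeostatic receptor (60.54 kb, 565 and 592 against 169 and 93.5, -2.19), and the corepressor Bcor (-2.02). Others were near Kdm6b, which removes methyl groups from the same lysine (1.417 kb, 455 and 409 against 103 and 117, -1.97), and the kinase Prkca with 2 regions (-1.93 and -1.85). Clint1 (-1.90), Ctnnd2 (-1.89), Slco4a1 (-1.85) and Foxn3 (-1.83) followed. The Hs1bp3 and Gpr34 calls held under every alternative. The calls near Bcor, Kdm6b, Prkca, Clint1, Ctnnd2, Slco4a1 and Foxn3 were lost with library sizes as the only scaling. All of these but the Prkca region at -1.93 were also lost without the scaling factor. Those near Slco4a1 and Foxn3 were lost against a fold of 1.5 as well. Genes with many changed regions were counted after seeing the data and picked from the highest counts. They were Tns3 (11 of its 32 nearest regions rose or were called after cuprizone alone), Tprg (10 of 17), Xylt1 (10 of 14), Zfp36l1 (10 of 33) and Bhlhe40 (9 of 15). Adtrp had 6 of 13 that fell. Of all 33128 regions of the union, 1221 rose, 3106 were called after cuprizone alone and 820 fell.

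Other marks and settings were read at the regions called after cuprizone alone. The adult H3K4me3 libraries came from mice of 75 days. Open chromatin had 1 library per group, from adult mice of 80 days and repopulation mice of 75 days. The repopulation H3K27ac libraries came from mice of 90 days whose microglia repopulated the brain after a CSF1R inhibitor. Adult open chromatin lay over 67.7% of them, against 84.8% of the union, and open chromatin of repopulating Ki67-positive cells over 83.4%, against 88.0% of the union. The title of the repopulation open chromatin library names the Ki67rfp reporter where its genotype label is WT. Among the 412 at promoters, 359 carried adult H3K4me3 in both lists (87.1%, against 96.7% of all promoter regions), and among the 2694 distal ones 275 did (10.2% against 18.2%). Both H3K27ac lists of PND8 Ki67-positive cells, from mice of 8 days, held 76.5% of the promoter regions and 37.5% of the distal ones. Both lists of repopulating Ki67-positive cells held 71.6% and 47.6%, and both lists of cuprizone Ki67-negative cells 37.9% and 44.7%. Over all promoter and distal regions of the union these shares were 95.0% and 63.1%, 91.0% and 61.3%, and 84.9% and 61.4%. Other regions missing from some lists stood below the union too. Both cuprizone Ki67-negative lists held 43.8% of regions found only after cuprizone, 39.7% of adult-only regions and 37.9% of the remaining patterns. In that order the shares were 42.7%, 41.0% and 48.4% for PND8 and 50.8%, 23.45% and 42.9% for repopulating Ki67-positive cells. Adult open chromatin lay over 79.8% and 71.1% of the latter groups, and repopulation open chromatin over 76.2% and 75.5%.

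Ki67-negative cells of cuprizone-fed mice share diet and age with the Ki67-positive ones and differ in the sort. In a limma fit of 6 libraries over 16207 regions, cuprizone Ki67-positive against adult gave 1503 higher (9.27%) and 1036 lower (6.39%), and cuprizone Ki67-negative against adult gave 329 higher (2.03%) and 31 lower (0.191%). The 2 comparisons share the adult libraries. Directly compared, Ki67-positive against Ki67-negative gave 0 higher (0.0%) and 0 lower (0.0%) by limma and by edgeR, with 1182 regions at an unadjusted p under 0.05, and DESeq2 gave 18 higher and 25 lower. The headers of same-numbered cuprizone libraries share a code that the labels do not explain, and the deviations of these libraries went together (r = 0.51 across regions). A fit of the 4 cuprizone libraries with that code as a block, chosen after seeing the data and with 1 residual degree of freedom, gave 1059 higher (5.22%) and 1101 lower (5.43%) of 20281 regions.

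In that blocked fit most G2/M promoters were higher in Ki67-positive cells. Of 32 tested 19 were called higher and 0 lower (5.22% and 5.43% of all regions), and 29 were higher in both pairs, as were 7168 of all 20281 regions, with a median log2 difference of 0.61. E2f2 had 310 and 399 scaled tag counts in the Ki67-positive and 137 and 153 in the Ki67-negative libraries (1.27 ± 0.13, limma adjusted p = 0.0151). Anln had 162 and 255 against 66.6 and 128 (1.13 ± 0.18, limma adjusted p = 0.0214), and Aurkb had 455 and 445 against 286 and 267 (0.70 ± 0.10, limma adjusted p = 0.0164). Of S phase promoters 4 of 24 were higher and 0 lower, against the same shares of all regions. Disease-associated genes split: 6 of 25 were higher and 0 lower, with a median of 0.08. Clec7a had 442 and 449 against 148 and 288 (1.10 ± 0.21, limma adjusted p = 0.0281), Cst7 was higher by 1.00, Igf1 by 0.83, Lpl by 0.60 and Csf1 by 0.47. Itgax had 370 and 370 against 399 and 456 (-0.20 ± 0.10, limma adjusted p = 0.207), Cd9 differed by 0.11 with no call, and Apoe had 646 and 610 against 388 and 520 (0.48 ± 0.13, limma adjusted p = 0.0595). Homeostatic promoters had 0 of 21 higher and 2 lower, and immediate early promoters had 1 of 17 higher and 0 lower (5.22% and 5.43% of all regions). P2ry12 was not called (-0.18, limma adjusted p = 0.228). Tmem204 had 152 and 153 against 613 and 388, which places both Ki67-negative libraries above both Ki67-positive ones (-1.67 ± 0.17, limma adjusted p = 0.0151). All these p-values are of the blocked fit, chosen after seeing the data. In the 6-library fit E2f2 (1.33 ± 0.31, limma adjusted p = 0.548), Anln (0.596), Aurkb (0.548) and Tmem204 (0.44) were not called. Clec7a, Cst7, Igf1 and Lpl were not among the regions of that fit.

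**Figure D4:**
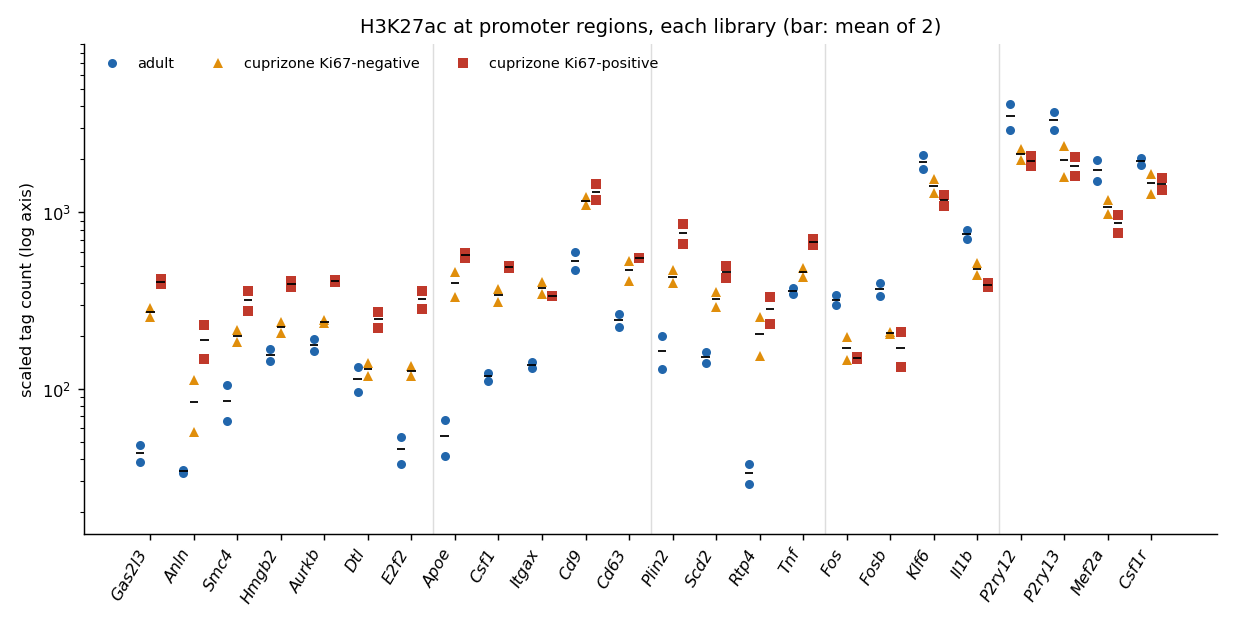
Scaled tag count (log axis) of promoter regions in the 6 libraries, scaled over all 6: adult (blue circles), cuprizone Ki67-negative (orange triangles) and cuprizone Ki67-positive (red squares), with the mean of 2 as a bar. At E2f2 and Anln the Ki67-negative libraries lie between the other groups, at Itgax they lie beside the Ki67-positive ones, and at Fos and P2ry12 both cuprizone groups lie below adult.

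RNA of other settings gave a separate readout for genes at these promoters. RNA came from adult mice of 90 days, genotype WT, and from mice of genotype Ki67-rfp, a reporter: PND8 Ki67-positive microglia and Ki67-positive microglia of 75 days that repopulated the brain after a CSF1R inhibitor, with 2 libraries each. Genotype and setting differ together in these comparisons and cannot be told apart. With edgeR, 3073 of 12230 genes were higher (25.1%) and 2976 lower (24.3%) in PND8 Ki67-positive cells than in adult cells. In repopulating cells 2918 were higher (23.9%) and 2571 lower (21.0%); both comparisons use the same adult RNA libraries. Of 407 genes at promoters that rose after cuprizone, 184 were higher (45.2%) and 71 lower (17.4%) at PND8, and 207 higher (50.9%) and 50 lower (12.3%) in repopulation. Of 398 genes at promoters called after cuprizone alone, 181 (45.5%) and 193 (48.5%) were higher. Of 164 genes at promoters that fell, 80 were lower (48.8%) and 20 higher (12.2%) at PND8, and 74 lower (45.1%) and 14 higher (8.54%) in repopulation.

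**Figure D5:**
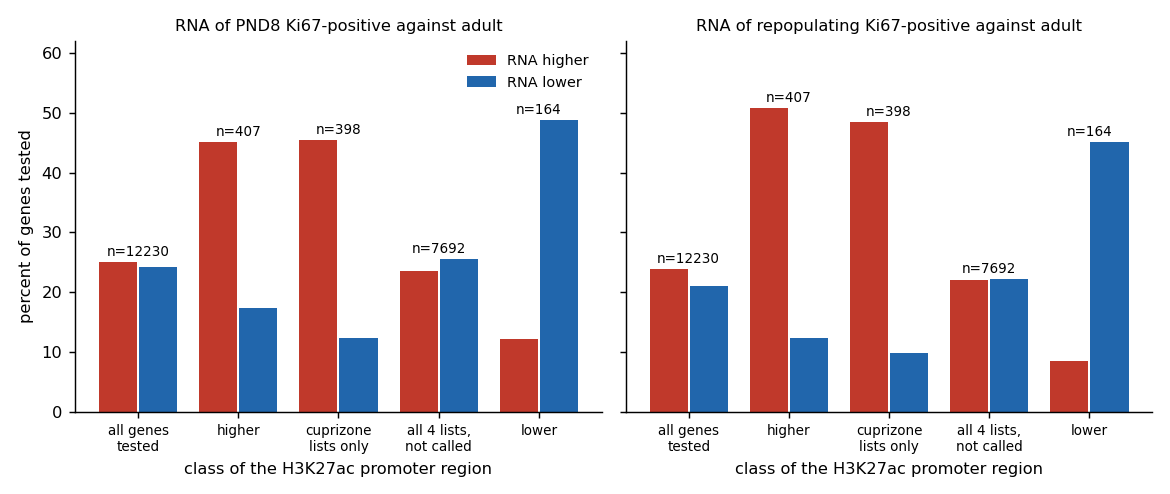
Percent of tested genes with higher (red) or lower (blue) RNA by edgeR in PND8 (left) and repopulating (right) Ki67-positive microglia against adult, for genes grouped by the class of their H3K27ac promoter region after cuprizone; n is the number of genes tested. Genes at promoters that rose have 45.2% and 50.9% higher, against 25.1% and 23.9% of all genes tested.

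Several genes at changed promoters had the same direction in both RNA comparisons and others did not. Mki67 RNA was higher by log2 fold changes of 6.37 at PND8 and 6.36 in repopulation, Gas2l3 by 3.95 and 3.27, Dna2 by 3.04 and 4.01, and Anln by 5.97 and 5.88. Slc2a6 (1.97 and 4.57), Itgax (1.61 and 2.27) and Plin2 (2.48 and 0.89) were higher in both, and Tmem204 was lower in both (-2.52 and -3.17). Apoe RNA was higher at PND8, with 482 and 446 CPM (counts scaled to library size) against 149 and 173 in adult cells (1.53), and lower in repopulation, with 52.0 and 66.9 (-1.44). Igf1 RNA was likewise higher at PND8 (5.34) and lower in repopulation (-1.36), whereas its cuprizone promoter signal was 455 and 351 against none called in adult. Rtp4 and Usp18 RNA were higher in repopulation (2.44 and 2.40) and not called at PND8 (0.13 and -0.33). Synj2 was lower at PND8 (-3.47) and higher in repopulation (1.11). Clec7a RNA was not called at PND8 (-0.62) and lower in repopulation (-1.93). Mitf RNA was lower in both (-0.66 and -1.20), the opposite direction to its promoter signal after cuprizone. P2ry12 RNA was not called in either (-0.26 and -0.28).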

How the data were processed

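Only region lists, 1 count table and RefSeq promoter sequences were used. Per the file headers, the authors called H3K27ac regions with HOMER in each library separately, at least 4 times over input and at a false discovery rate of 0.001, and the deposited Normalized Tag Count is a signal per 10000000 tags. The deposited fold over input, a ratio the authors' caller gave per region, was used only for a stricter threshold of 8. The submitters' processing notes name Bowtie2 2.3.4.1, HOMER 4.11, STAR 2.7.0f and the build mm10. The deposited RNA counts are raw, per the file headers. Adult files name a vehicle in their headers, and the labels name no treatment for them.

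Regions overlapping by at least 1 bp were merged over the 4 lists, and the tag counts of the peaks called in each library were summed per region. Whole tags were recovered for 100.0% of values, and edgeR 4.0.16 on those tags called 1218 higher and 818 lower. The main test was limma 3.58.1 in R 4.3.3 on log2 of the scaled signal with a pseudocount of 1, the stated fallback where lists hold no whole tag counts, with Benjamini-Hochberg adjustment and a threshold of 0.05. RNA was fitted with edgeR over 10 libraries of 6865903 to 10287876 counts. The code was tested on simulated data. DESeq2 1.42.0, other scalings, filters and left-out libraries were alternatives.

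Regions named were the 12 largest rises and 12 largest falls above the median level, the 6 strongest of each presence class, up to 6 called promoter regions per gene list, and a panel of marker genes; 1 of these regions is not reported here. The members, lists and tests were chosen with earlier results of these data known. Gene lists covered G2/M and S phase, homeostatic and disease-associated genes, interferon, cholesterol and lipid, immediate early, NF-kB and antigen presentation genes and transcription factors, beside markers of other cell types. Same-numbered adult and cuprizone libraries share no header code, and their deviations correlated at -0.07, so their numbers do not pair them.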

Additional observations from a re-analysis of the deposited data

How the results depend on the processing

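The counts of called regions depended on the scaling and on single libraries. Of the 59 named regions that were called, 19 kept their call under every alternative that tested them. Some of these 19, Apoe and E2f2 among them, were not tested with at least 100 tags. Against 1221 higher and 820 lower, edgeR with library sizes alone gave 476 and 15, no further scaling gave 659 and 13, and a test against a fold of 1.5 gave 242 and 42. Leaving out 1 library, over the regions in the 3 remaining lists, gave 389 to 3517 higher and 149 to 2910 lower; the lone library of a group is then assumed to vary like the other group. The other alternatives (edgeR with TMM, DESeq2, tag density, at least 100 tags, 6 libraries in 1 fit, and quantile normalization, added after seeing the data) stayed within 1.5 times, though tag density kept 1409 and quantile normalization 1753 of the 2041 calls. For Ki67-positive against Ki67-negative cells DESeq2 gave 18 and 25 in place of 0 and 0, the 4 cuprizone libraries with a replicate block gave 1059 and 1101, and leaving out 1 library gave 0 in every case. Regions called after cuprizone alone numbered 1351 and those in adult alone 128 at 8 times the input, 1528 and 1089 at equal list lengths, and 3420 to 7177 and 416 to 1825 without 1 library. The replicate block in the main comparison gave 1499 higher and 1187 lower, and with it in the 6-library fit Ki67-positive against Ki67-negative stayed at 0 and 0. Directions turned in regions that were not called: Csf1r turned to 0.0093 under quantile normalization and Sall1 to 0.17 with library sizes alone, 0.39 without scaling, 0.0634 with at least 100 tags and 0.26 under quantile normalization. Without 1 library Sall1 ran from -0.5235 to 0.39 and Abca1 from -0.0167 to 0.325. The cause was not tested. Pairing by header code could not be run for cuprizone against adult, which share none. With 2 libraries a group, adult replicate 1 had the lowest share of tags in regions (32.6%) and the shortest list; whether the one sets the other was not tested.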
